A study of Mus musculus with 14 samples.

Results

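Tight junction genes of mouse hepatocytes were followed through isolation and culture. The genes were 7 claudins (Cldn1, Cldn2, Cldn3, Cldn4, Cldn6, Cldn7 and Cldn12), occludin (Ocln), the scaffold protein ZO-1 (Tjp1) and cingulin (Cgn), taken by symbol as 10 of the 21878 genes of the deposited tables. RNA was sequenced from primary hepatocytes of C57BL/6 mice in 14 libraries that fell into 7 groups of 2. Cells cultured under the condition named LBDXL were taken at 3 weeks (LBDXL 3W), and so were YAP-/- cells under the condition named BM (BM 3W YAP-/-). BM cells without the YAP-/- label were taken after 3 weeks (BM 3W), 3 days (BM 3D) and 1 day (BM 1D). Freshly isolated cells were YAP-/- (FH YAP-/-) or carried no such label (FH). The labels do not spell out BM or LBDXL, and the origin of the YAP-/- cells was not given in the sources used here. The title of the study names mechanical tension and the activation of YAP, a transcriptional co-activator of the Hippo pathway, as its subject.

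Tight junctions seal the space between epithelial cells. Claudins are the membrane proteins that form the sealing strands and set which ions pass. Occludin is a further strand protein. ZO-1 ties the strands to the actin cytoskeleton, and cingulin joins ZO-1 to actomyosin. In liver the tight junctions of hepatocytes close the bile canaliculus against the blood. Claudin-1, claudin-2 and claudin-3 are known from hepatocytes, claudin-2 forms a pore for cations, and claudin-4 and claudin-7 are known from bile duct and other lining epithelia. Claudin-6 is known from embryonic epithelia.

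Levels are CPM on library sizes scaled by TMM, given for library 1 and then library 2 of a group, or as mean ± SD of both libraries. Fold changes are on the log2 scale ± standard error. "Rose", "fell", "higher" and "lower" as results of a comparison mean an adjusted p under 0.05 in edgeR's quasi-likelihood test with Benjamini-Hochberg adjustment over 14100 genes. Nothing in the labels ties the libraries of a group to different animals or culture dishes. The p-values therefore cover just the spread between these samples, which may be technical. Total counts ran from 15501005 to 21220365 per library. TMM factors ran from 0.648 in FH to 1.69 in BM 3W, so scaling by total counts alone would add 0.92 to a log2 fold change of BM 1D against FH, 1.29 in BM 3W against FH and -0.82 in LBDXL 3W against BM 3W. By total counts 7064 of all genes rose and 1351 fell in BM 1D against FH, in place of 3328 and 2842 by TMM. In BM 3W against FH 9282 rose and 1364 fell, in place of 4653 and 3675, and in LBDXL 3W against BM 3W 1135 rose and 6650 fell, in place of 2980 and 3343. Yap1, the gene of the label, stood at 7.20 ± 0.770 CPM in BM 3W YAP-/- against 87.8 ± 10.8 CPM in BM 3W, and at 24.8 ± 2.37 CPM in FH YAP-/- against 92.6 ± 7.03 CPM in FH.

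Markers of the labelled cell type and of others differed between the groups. The summed level of 8 hepatocyte markers lay between 3304 and 32220 CPM in BM 3W and between 96930 and 112500 CPM in BM 3W YAP-/-. It lay between 163400 and 207300 CPM in LBDXL 3W and between 214700 and 218000 CPM in FH. Alb alone averaged 158300 CPM in LBDXL 3W and 152500 CPM in FH, so these sums mostly follow 1 gene. The median log2 fold change of the 8 markers was -1.12 in LBDXL 3W against FH. Of them 0 rose and 1 fell there, beside 11.7% and 9.60% of all genes. For 8 cholangiocyte markers, the cells that line bile ducts, the sum was 4492 to 5209 CPM in BM 3W, 119 to 147 CPM in BM 3W YAP-/-, 33.7 to 62.5 CPM in LBDXL 3W and 44.3 to 48.1 CPM in FH. Earlier in culture it was 149 to 249.8 CPM at 1 day and 151 to 632 CPM at 3 days. Spp1 alone made up 4337 to 5036 CPM of the sum in BM 3W, and without it the other 7 markers summed to 155 to 173 CPM in BM 3W, 51.0 to 71.7 CPM in BM 3W YAP-/-, 24.1 to 47.3 CPM in LBDXL 3W and 22.6 to 22.9 CPM in FH. Cftr was at 0 counts in FH, and no other cholangiocyte marker was at 0 in both libraries of any of these groups. Of the 7 cholangiocyte markers tested, 7 rose in BM 3W against FH, beside 33.0% of all genes. In LBDXL 3W against BM 3W 7 fell, beside 23.7%. In BM 3W YAP-/- against BM 3W 3 fell, beside 16.6%. Stellate cell and fibroblast markers summed to 6168 and 6212 CPM in BM 3W, against 102 to 124 CPM in FH, and macrophage markers to 772 and 939 CPM against 73.4 to 101 CPM. Not all macrophage markers followed their sum. Of 8, 6 rose and 2 fell in BM 3W against FH, beside 33.0% and 26.1% of all genes. Clec4f averaged 0.165 CPM in BM 3W against 22.2 CPM in FH, and Timd4 0.0686 against 2.46 CPM. In LBDXL 3W the stellate sum was 263 to 572 CPM and the macrophage sum 1.96 to 2.66 CPM. The sum of 8 sinusoidal endothelial markers, 1 of them Cldn5, was 152 CPM in 1 LBDXL 3W library and 5.01 CPM in the other. The part of these cell types in the levels of the tight junction genes was not tested, and in bulk RNA fewer cells of a type and less RNA per cell cannot be told apart.

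**Figure D1:**
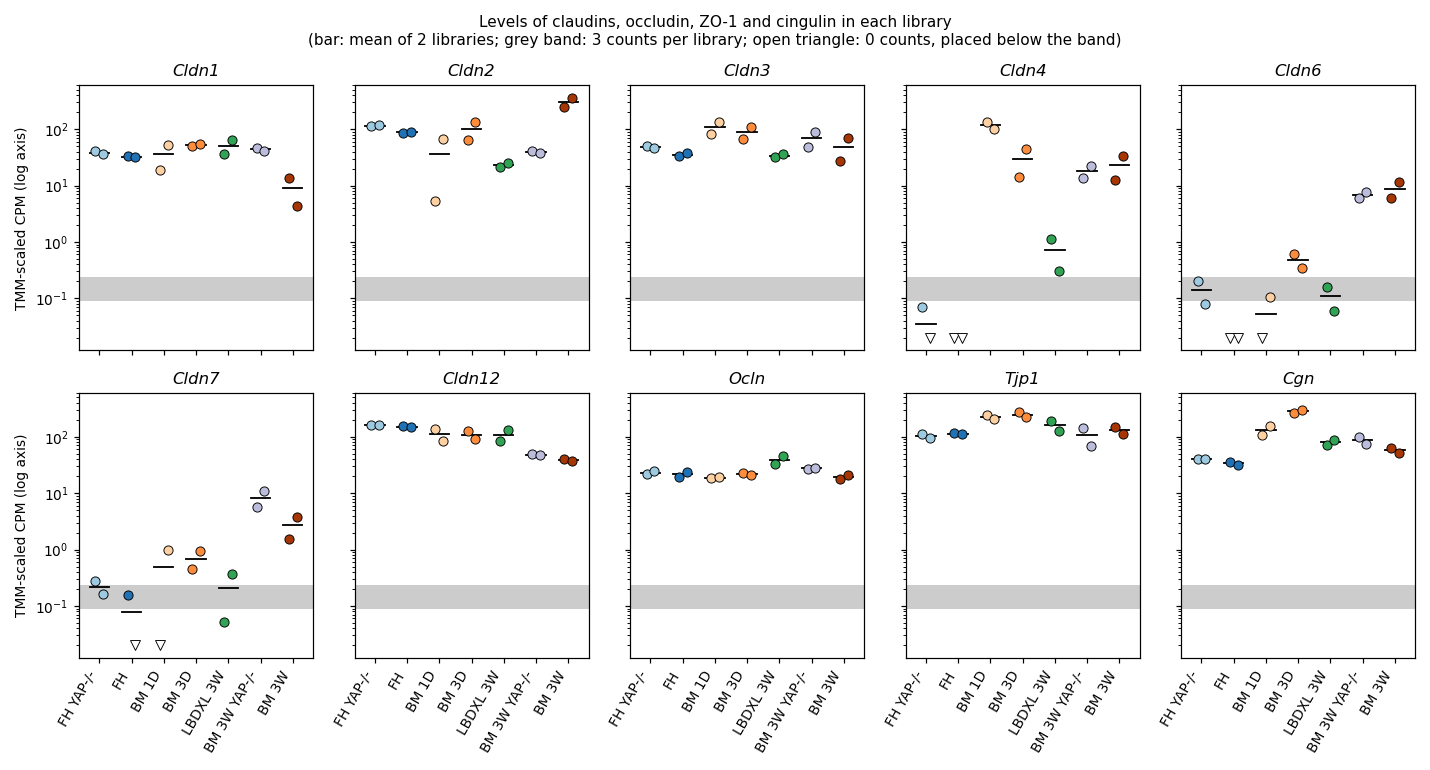
TMM-scaled CPM of the 10 genes in each library (log axis), by group, with the mean of the 2 libraries as a bar and the range of 3 counts per library as a grey band. Cldn4 has 0 counts in both FH libraries and stands at 134 and 102 CPM in BM 1D, Cldn2 is highest in BM 3W, and Cldn6 and Cldn7 lie above the band mainly in BM 3W and BM 3W YAP-/-.

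Cldn4 (chromosome 5, 134945123 to 134946934 on the minus strand of GRCm38.p6, NCBI gene 12740) had no counts in FH cells and was among the most abundant claudins after a day in culture. There were 0 and 0 counts in FH, 2967 and 1953 in BM 1D, 350 and 892 in BM 3D, and 371 and 1116 in BM 3W. In CPM these were 134 and 102 in BM 1D, 14.2 and 43.9 in BM 3D, and 12.7 and 33.4 in BM 3W. Both BM 1D libraries lay above all others, and the BM 3D and BM 3W libraries overlapped. With FH placed at a floor of 3 counts per library (0.238 CPM), Cldn4 was at least 495-fold higher in BM 1D, at least 122-fold in BM 3D and at least 96.9-fold in BM 3W. Its absence from fresh cells was known when the gene was chosen, so these values are a description. In FPKM, reads per length and depth as the authors estimated them, FH library 1 is listed at 0.0390 and FH library 2 at 0.

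LBDXL 3W held little Cldn4, with 21 and 5 counts, or 1.11 and 0.302 CPM, against 12.7 and 33.4 CPM in BM 3W. The groups did not overlap. Against FH this was at least 2.97-fold higher. BM 3W YAP-/- had 279 and 447 counts, or 13.6 and 22.5 CPM, which overlapped BM 3W (log2 -0.36 ± 0.61, adjusted p = 0.682). FH YAP-/- had 1 and 0 counts, so Cldn4 in BM 3W YAP-/- stood above it by a ratio of 484, with a 95% counting interval of 86.6 to 19200. Both LBDXL 3W libraries lay below those of BM 3W YAP-/- too.

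Cldn4 lies next to Cldn3, 39.3 kb away with 0 annotated genes between them. Their promoter windows are shown because the neighbours differed in fresh cells, where Cldn3 was present and Cldn4 was not. Each window covers 250 bases before and 50 after the RefSeq start of transcription, on the gene's own strand, as given by RefSeq for GRCm38.p6. Capitals mark the letters of 4 motifs or their reverse complements: the AP-1 site TGANTCA, the E-box CAGGTG that Snail factors bind, the GC box GGGCGG of Sp1, and GGAATG, the core that TEAD factors, the DNA-binding partners of YAP, recognise.
Cldn4 (chr5:134946885-134947184, minus strand): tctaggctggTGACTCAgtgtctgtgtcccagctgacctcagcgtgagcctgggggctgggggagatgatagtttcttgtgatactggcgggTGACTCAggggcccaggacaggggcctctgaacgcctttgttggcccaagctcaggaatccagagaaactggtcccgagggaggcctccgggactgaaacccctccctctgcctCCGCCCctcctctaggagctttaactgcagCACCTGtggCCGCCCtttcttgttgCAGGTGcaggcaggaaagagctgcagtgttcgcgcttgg
Cldn3 (chr5:134985964-134986263, plus strand): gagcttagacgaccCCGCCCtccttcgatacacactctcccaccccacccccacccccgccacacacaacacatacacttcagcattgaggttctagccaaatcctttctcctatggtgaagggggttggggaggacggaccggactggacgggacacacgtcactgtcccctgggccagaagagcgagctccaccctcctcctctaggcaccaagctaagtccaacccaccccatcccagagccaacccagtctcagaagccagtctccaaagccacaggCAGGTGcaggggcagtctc
The Cldn4 window held the AP-1 letters 2 times, starting 240 and 158 bases before the start. At least 1 copy stands in 7.81% of 32851 mouse promoter windows of this length and in 1 of the 10 genes followed here. The Cldn4 window also held 2 copies of the E-box letters, found in 20.2% of all windows, and 2 GC boxes, found in 35.7%. The Cldn3 window held 1 E-box and 1 GC box. Of the matches, 0 shared bases with another motif. A match of letters is a description and shows no binding.

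Cldn3 itself (chromosome 5, 134986214 to 134987476, plus strand) was present in every group and rose early in culture. It had 33.5 and 37.1 CPM in FH, 82.0 and 134 CPM in BM 1D, 65.7 and 110.2 CPM in BM 3D, and 27.7 and 69.2 CPM in BM 3W. All 4 early culture libraries lay above FH, while the BM 3W libraries lay on either side of it. The log2 fold change was 1.61 ± 0.44 in BM 1D against FH (adjusted p = 0.0130) and 1.32 ± 0.44 in BM 3D against FH (adjusted p = 0.0339), and both calls were lost without either FH library or without BM 1D 2 or BM 3D 2 in its own comparison (adjusted p up to 0.189). In BM 3W against FH it did not pass (0.46 ± 0.43, adjusted p = 0.383), but passed under 4 of 9 other settings (adjusted p from 0.00428 to 0.429). LBDXL 3W had 31.8 and 35.8 CPM, within the range of BM 3W and overlapping FH. By total counts its 29.5 and 31.4 CPM lay below BM 3W, at 41.3 and 117 CPM, and above FH, at 21.8 and 24.1 CPM. LBDXL 3W against BM 3W did not pass (-0.52 ± 0.43, adjusted p = 0.355), but did under 4 of 9 other settings (adjusted p from 0.0134 to 0.393). The end of Cldn3 overlaps the antisense gene Wbscr25, and strand use in counting was not given in the sources used here, so reads of the 2 genes cannot be told apart there.

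Cldn2 (chromosome X, 139800808 to 139811386, plus strand, NCBI gene 12738) separated BM 3W from every other group. It had 85.96 and 89.0 CPM in FH, 5.37 and 67.1 CPM in BM 1D, 63.1 and 137 CPM in BM 3D, and 246 and 351 CPM in BM 3W. The BM 1D libraries were far apart, and both BM 3W libraries lay above all 12 others. The log2 difference of BM 3W against FH was 1.77 ± 0.78 and did not pass (adjusted p = 0.0708), although it did under 6 of 9 other settings, DESeq2 (adjusted p = 0.0238) and total count scaling (adjusted p = 0.00485) among them. BM 1D against FH did not pass (-1.27 ± 0.77, adjusted p = 0.204), but 1 library decides that value. Without BM 1D 2 the difference was -4.02 and passed (adjusted p = 3.46e-04), and without BM 1D 1 it was -0.38 (adjusted p = 0.496).

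At 3 weeks Cldn2 was lower in both other cultures than in BM 3W. LBDXL 3W had 20.98 and 24.95 CPM, against 246 and 351 CPM in BM 3W. The log2 difference of -3.70 ± 0.84 (adjusted p = 0.00522) held under all 23 alternatives. BM 3W YAP-/- had 41.8 and 38.1 CPM, also below both BM 3W libraries (log2 -2.90 ± 0.81, adjusted p = 0.0210). This call was lost without BM 3W 2 or without either BM 3W YAP-/- library (adjusted p up to 0.128). In fresh cells the difference did not pass, with 113 and 119 CPM in FH YAP-/- against 85.96 and 89.0 CPM in FH (log2 0.41 ± 0.76, adjusted p of 1). The difference between these 2 effects of the YAP-/- label, tested as an interaction, was -3.31 ± 1.10 and did not pass (adjusted p = 0.0623), but passed under 8 of 9 other settings. Adjusted p ran from 1.97e-04 to 0.0578 over these 9 settings. The cholangiocyte, stellate and macrophage marker sums given above were also highest in BM 3W. The Cldn2 promoter window is shown because the TEAD letters occur in it 2 times, from 147 bases before and from 28 bases after the start.
Cldn2 (chrX:139800558-139800857, plus strand): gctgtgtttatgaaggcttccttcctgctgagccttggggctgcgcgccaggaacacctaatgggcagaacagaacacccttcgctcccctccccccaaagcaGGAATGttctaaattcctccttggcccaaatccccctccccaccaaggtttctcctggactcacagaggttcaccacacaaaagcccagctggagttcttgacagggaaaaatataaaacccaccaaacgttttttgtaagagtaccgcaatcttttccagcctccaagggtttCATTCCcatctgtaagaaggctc
At least 1 copy of these letters stands in 14.7% of all windows. Among the 10 genes, Cldn6 and Cldn7 had 1 copy each, and the Cldn4 window had 0.

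Cldn1, a claudin without which paracellular barriers leak, was lowest in BM 3W. It had 33.95 and 31.5 CPM in FH, 18.6 and 52.9 CPM in BM 1D, 51.3 and 54.1 CPM in BM 3D, and 13.9 and 4.34 CPM in BM 3W. By TMM both BM 3W libraries lay below all others. By total counts BM 3W 1, at 20.7 CPM, lay above FH 2, at 20.4 CPM. Cldn1 fell in BM 3W against BM 3D (-2.53 ± 0.55, adjusted p = 0.00815) and against FH (-1.85 ± 0.54, adjusted p = 0.0134), and both calls were lost without BM 3W 2. The call against FH was also lost by total counts (log2 -0.60, adjusted p = 0.294) and in FPKM (adjusted p up to 0.321). It was higher in LBDXL 3W, at 35.7 and 63.97 CPM, than in BM 3W (2.45 ± 0.55, adjusted p = 0.00491), and this held under all 23 alternatives. It was higher in BM 3W YAP-/- too, at 45.8 and 41.6 CPM (2.26 ± 0.55, adjusted p = 0.0111, and adjusted p = 0.0659 without BM 3W 2). The ratio of Cldn2 to Cldn1, which does not depend on how libraries are scaled, was 14.4 and 67.1 by FPKM in BM 3W. The ratio stood at 0.516 and 0.393 in LBDXL 3W. The BM 3W YAP-/- libraries had 0.773 and 0.850, and those of FH 2.16 and 2.35.

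Cldn12, a claudin that lacks the usual anchor for ZO-1, was lower after 3 weeks of BM culture with or without the YAP-/- label. It had 156 and 147 CPM in FH, 136 and 83.3 CPM in BM 1D, 127 and 91.95 CPM in BM 3D, and 40.3 and 37.7 CPM in BM 3W. By TMM, BM 3W lay below every library of the other groups. By total counts BM 3W YAP-/- was lower still, at 49.7 and 49.1 CPM against 60.1 and 63.7 CPM in BM 3W. Cldn12 fell by 1.49 ± 0.28 in BM 3W against BM 3D (adjusted p = 0.00407). It fell by 1.96 ± 0.29 against FH (adjusted p = 2.14e-04), a call that total counts and 2 of 3 FPKM settings did not keep (adjusted p up to 0.0674). In BM 3W YAP-/-, with 49.2 and 47.5 CPM against 162 and 165 CPM in FH YAP-/-, it fell by 1.76 ± 0.29 (adjusted p = 0.00103) under all 23 alternatives. LBDXL 3W had 83.3 and 133 CPM and was higher than BM 3W by 1.47 ± 0.28 (adjusted p = 0.00214), though not by total counts or FPKM (adjusted p up to 0.207).

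Cldn6 and Cldn7 were near absent from fresh cells and were highest at 3 weeks in BM culture. Cldn6 had 177 and 389 counts in BM 3W, or 6.07 and 11.6 CPM, and 124 and 153 counts in BM 3W YAP-/-, or 6.03 and 7.69 CPM. It had 0 and 0 counts in FH, 0 and 2 in BM 1D, 15 and 7 in BM 3D, 3 and 1 in LBDXL 3W, and 3 and 1 in FH YAP-/-. BM 3W and BM 3W YAP-/- overlapped (log2 -0.37 ± 0.61, adjusted p = 0.669) and stood above every other group. By total counts these 2 groups did not overlap, with 9.06 and 19.7 CPM in BM 3W against 6.09 and 7.95 CPM. Their difference passed under 2 of 9 other settings (adjusted p from 0.0077 to 0.710). Cldn6 was at least 37.2-fold higher in BM 3W than in FH.

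Cldn7 had 119 and 216 counts in BM 3W YAP-/-, or 5.78 and 10.9 CPM, against 44 and 128 counts in BM 3W, or 1.51 and 3.83 CPM. It had 2 and 0 counts in FH, 0 and 19 in BM 1D, 11 and 19 in BM 3D, 1 and 6 in LBDXL 3W, and 4 and 2 in FH YAP-/-. The BM 3W YAP-/- libraries were the highest and did not overlap BM 3W, but the difference did not pass (1.64 ± 1.08, adjusted p = 0.268). The ratio of BM 3W to FH, on 172 against 2 counts, was 34.6 with a counting interval of 9.45 to 288. Cldn4, Cldn6 and Cldn7 passed the filter on low counts only through cultured groups, so they had to be high in culture to be tested at all. Cldn6 passed only through BM 3W and BM 3W YAP-/-. For Cldn7 the same holds by TMM. The filter itself used total counts, by which Cldn7 also passed through BM 3D, at 0.605 and 1.073 CPM. Where a group that was compared did not itself pass by TMM for 1 of these 3 genes, the values are a description and no test is given.

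**Figure D2:**
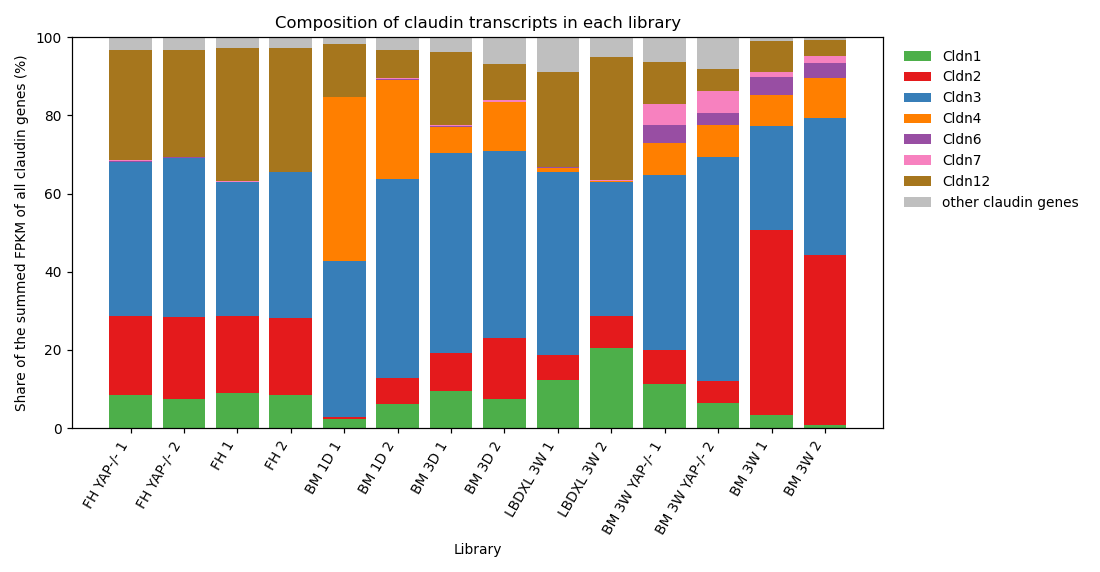
Share of each claudin in the summed FPKM of 33 claudin genes (percent, vertical axis) in each library. Cldn2 makes up 47.3 and 43.6% in BM 3W, Cldn4 42.1 and 25.5% in BM 1D, and Cldn3 is the largest part of most other libraries.

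By FPKM, which allows genes to be compared per length, 20 of 33 claudin genes were above 0 in at least 1 library, and the 7 described here held 91.2 to 99.4% of the claudin total. In FH, Cldn3 held 34.4 and 37.3% of it, Cldn12 33.9 and 31.7%, Cldn2 19.6 and 19.8%, and Cldn4 at most 0.0529%. BM 1D differed through Cldn4, at 42.1 and 25.5%, with Cldn2 at 0.524 and 6.64%. Cldn2 held 6.38 and 8.09% in LBDXL 3W and 8.68 and 5.52% in BM 3W YAP-/-, while in BM 3W it was the leading claudin, at 47.3 and 43.6%. Cldn3 held the largest share in BM 3W YAP-/-, at 44.7 and 57.4%. In LBDXL 3W the leading claudins were those of FH, Cldn3 at 46.8 and 34.2% and Cldn12 at 24.4 and 31.4%. The claudin total was 80.2 and 72.5 FPKM in LBDXL 3W, 199.9 and 359 FPKM in BM 3W, and 73.8 and 74.9 FPKM in FH. Unlike the shares, these totals depend on how libraries are scaled, and FPKM carries no TMM factor. Scaling by total counts alone adds 1.29 to a log2 difference of BM 3W against FH. For LBDXL 3W against FH it adds 0.47. The totals are therefore not read as differences between groups. Shares and totals are descriptions without a test.

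Of the 3 genes that are not claudins, the one for cingulin had the largest changes against FH. Cgn (chromosome 3, 94760069 to 94787725, minus strand) had 35.6 and 31.6 CPM in FH, 108 and 154 CPM in BM 1D, 262 and 303 CPM in BM 3D, and 62.8 and 51.9 CPM in BM 3W. Every library of BM culture lay above FH, and the level peaked at 3 days with no overlap between neighbouring times. Against FH it rose by 1.97 ± 0.24 in BM 1D (adjusted p = 1.34e-04) and by 3.07 ± 0.25 in BM 3D (adjusted p = 2.76e-05), both under all 23 alternatives. It was 2.30 ± 0.25 log2 units lower in BM 3W than in BM 3D (adjusted p = 1.61e-04), also under all 23. The rise of 0.77 ± 0.24 in BM 3W against FH (adjusted p = 0.0165) was lost without either FH library or BM 3W 1 (adjusted p up to 0.0970). LBDXL 3W, at 70.8 and 88.0 CPM, stood above FH by 1.24 ± 0.24 (adjusted p = 0.00482, and adjusted p = 0.0589 without FH 2). BM 3W YAP-/-, at 99.4 and 73.2 CPM, stood above FH YAP-/-, at 40.5 and 39.6 CPM, by 1.11 ± 0.24 (adjusted p = 0.00476).

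Tjp1 (chromosome 7, 65296165 to 65527850, minus strand) had 117 and 111 CPM in FH, 246 and 203 CPM in BM 1D, 274 and 219.6 CPM in BM 3D, and 152 and 114 CPM in BM 3W. The BM 1D and BM 3D libraries lay above all others. ZO-1 message rose by 0.98 ± 0.34 in BM 1D against FH (adjusted p = 0.0368) and by 1.11 ± 0.34 in BM 3D against FH (adjusted p = 0.0228). Both calls were lost when either FH library was left out, that of BM 1D also without either BM 1D or either FH YAP-/- library, and that of BM 3D without BM 3D 1 (adjusted p up to 0.159). Tjp1 overlaps 3 predicted genes, 1 of them on the other strand, so a part of its reads is uncertain. Neither BM 3W (0.22 ± 0.34, adjusted p = 0.589) nor LBDXL 3W (0.48 ± 0.34, adjusted p = 0.350), at 189.9 and 127 CPM, passed against FH. Under other settings BM 3W passed in 4 of 9 (adjusted p from 3.71e-04 to 0.696). LBDXL 3W passed in 3 of 9 (adjusted p from 0.0146 to 0.424). In BM 3W YAP-/- Tjp1 stood at 145 and 68.3 CPM, on both sides of BM 3W (-0.32 ± 0.34, adjusted p = 0.495). This overlap depended on the scaling. By total counts it had 147 and 70.6 CPM there, below the 226 and 193 CPM of BM 3W. The difference passed under 4 of 9 other settings (adjusted p from 0.00972 to 0.561).

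Ocln (chromosome 13, 100496504 to 100552718, minus strand) had 33.4 and 45.6 CPM in LBDXL 3W, 27.4 and 28.4 CPM in BM 3W YAP-/-, 17.6 and 21.1 CPM in BM 3W, and 19.5 and 23.6 CPM in FH. BM 1D had 18.3 and 19.4 CPM and BM 3D 22.9 and 20.7 CPM. By TMM both LBDXL 3W libraries lay above every other library. By total counts LBDXL 3W 1, at 30.9 CPM, lay below BM 3W 2, at 35.7 CPM, and BM 3D 1, at 31.1 CPM. Occludin message was higher in LBDXL 3W than in FH by 0.88 ± 0.21 (adjusted p = 0.0145), a call lost without LBDXL 3W 2 or either FH library, and with the compared groups alone (adjusted p up to 0.137). It was higher than in BM 3W by 1.03 ± 0.21 (adjusted p = 0.00294), but not by total counts (0.19, adjusted p = 0.509), with the compared groups alone (adjusted p = 0.0609) or in FPKM (adjusted p up to 0.767). Against FH, Ocln did not pass in BM 1D (-0.19 ± 0.21, adjusted p = 0.487) or BM 3W (-0.15 ± 0.21, adjusted p = 0.548), where total counts gave 0.73 and 1.15 and passed.

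**Figure D3:**
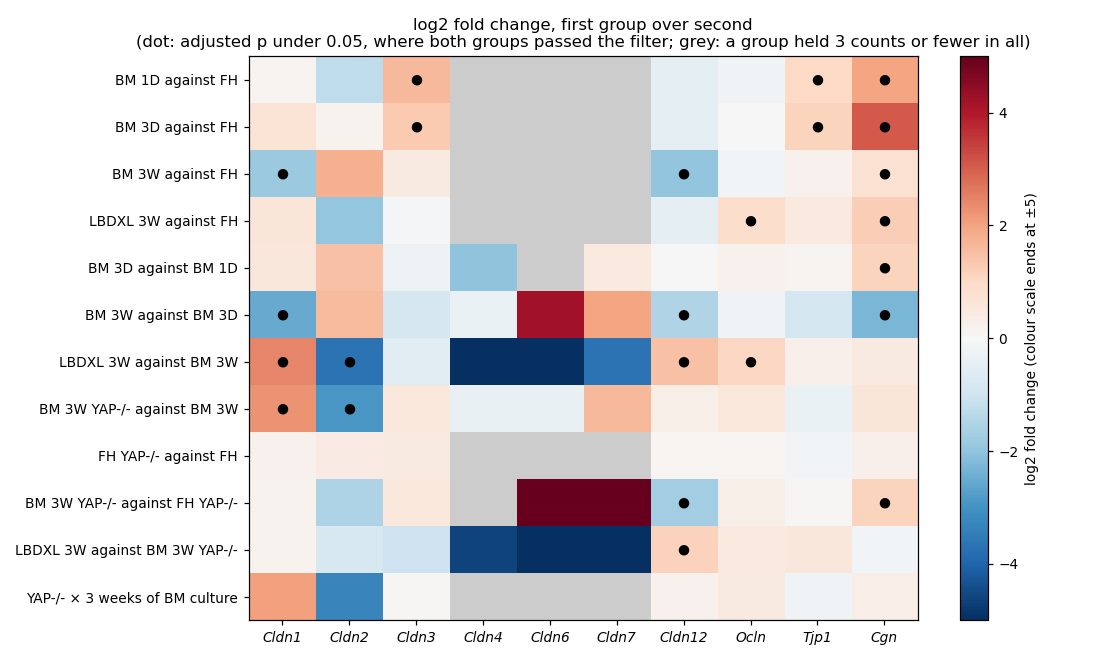
log2 fold changes of the 10 genes (columns) in 12 comparisons (rows), first group over second, with grey where a group held 3 counts or fewer in all and, elsewhere, a dot where the adjusted p is under 0.05 and both groups passed the filter. LBDXL 3W against BM 3W holds 4 dots, and FH YAP-/- against FH holds 0.

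The counts of calls that follow cover the 7 genes that passed the filter in every group (Cldn1, Cldn2, Cldn3, Cldn12, Ocln, Tjp1 and Cgn), and leave out Cldn4, Cldn6 and Cldn7. In BM 1D against FH 3 of the 7 (Cldn3, Tjp1 and Cgn) rose and 0 fell, where 43.8% of all genes were called, 23.6% higher and 20.2% lower. In BM 3D against FH 3 rose, again Cldn3, Tjp1 and Cgn, and 0 fell, beside 40.5% of all genes called, 22.5% higher and 17.9% lower. In BM 3W against FH Cgn rose and Cldn1 and Cldn12 fell, beside 59.1% called, 33.0% higher and 26.1% lower. By total counts 5 rose and 0 fell there. In LBDXL 3W against FH 2 genes, Ocln and Cgn, rose and 0 fell, beside 21.3% called, 11.7% higher and 9.60% lower.

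The median log2 fold change of the 7 genes was 0.13 in BM 1D, 0.69 in BM 3D, 0.22 in BM 3W and 0.48 in LBDXL 3W against FH, beside 0.17, 0.17, 0.17 and 0.09 over all genes. The 4 comparisons share the FH libraries. Between times, only Cgn of the 7 was called in BM 3D against BM 1D (1.11 ± 0.24, adjusted p = 0.0248), beside 5.26% of all genes, 3.67% higher and 1.60% lower. That call was lost with the compared groups alone and without any of 7 libraries (adjusted p up to 0.208). In BM 3W against BM 3D 0 rose and Cldn1, Cldn12 and Cgn fell, beside 24.4% called, 13.5% higher and 10.9% lower.

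At 3 weeks, 4 of the 7 genes were called in LBDXL 3W against BM 3W, beside 44.8% of all genes, 21.1% higher and 23.7% lower. Cldn1, Cldn12 and Ocln were higher and Cldn2 lower. By total counts 1 was higher and 2 were lower. In BM 3W YAP-/- against BM 3W 2 were called, Cldn1 higher and Cldn2 lower, beside 31.6% called, 15.0% higher and 16.6% lower. By total counts 1 was higher and 2 were lower. Both comparisons share the BM 3W libraries. Set directly against BM 3W YAP-/-, LBDXL 3W was higher in Cldn12 (1.16 ± 0.28, adjusted p = 0.0355) and 0 of the 7 were lower, beside 6.94% called, 2.61% higher and 4.33% lower. By total counts 0 were higher and 0 lower, and the Cldn12 call was lost under 12 of 23 alternatives. Cldn1 did not pass in that comparison (0.19 ± 0.52, adjusted p = 0.869), nor did Cldn2 (-0.80 ± 0.77, adjusted p = 0.576), which does not show that both cultures held them at the same level.

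**Figure D4:**
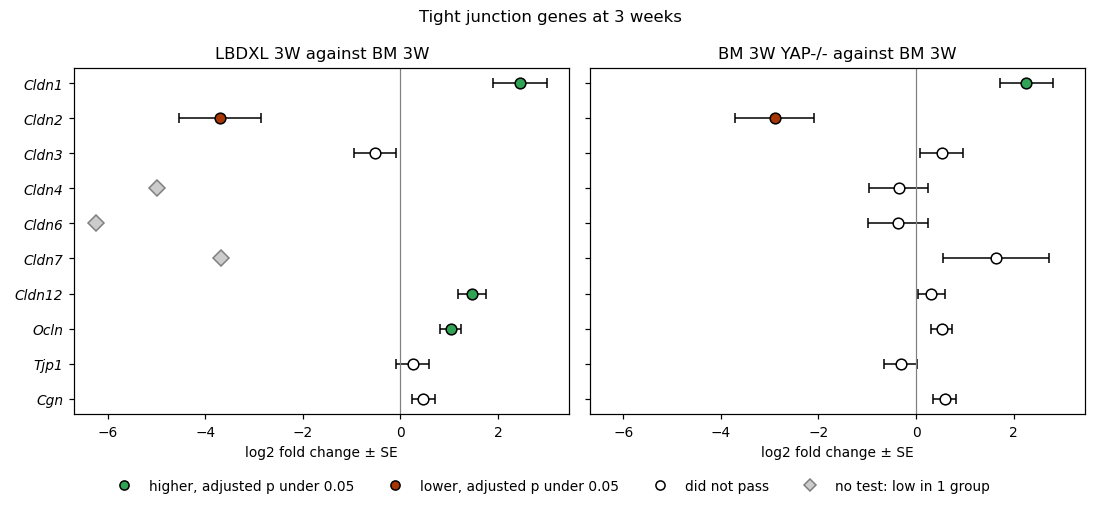
log2 fold changes ± SE (horizontal axis) of the 10 genes in LBDXL 3W against BM 3W (left) and BM 3W YAP-/- against BM 3W (right), filled where the adjusted p is under 0.05. Grey diamonds are fitted values with no test, for genes that did not pass the filter in LBDXL 3W. Cldn1 is higher and Cldn2 lower in both panels.

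In fresh cells no call was made between FH YAP-/- and FH among these genes in the fit to all 14 libraries. Cldn3 had 49.96 and 46.7 CPM in FH YAP-/- against 33.5 and 37.1 CPM in FH. For Cldn1 the levels were 40.2 and 36.5 CPM in FH YAP-/- against 33.95 and 31.5 CPM in FH. Tjp1 had 110.3 and 96.9 CPM in FH YAP-/- against 117 and 111 CPM in FH. Ocln stood at 21.5 and 24.2 CPM in FH YAP-/- against 19.5 and 23.6 CPM in FH. The libraries of the groups did not overlap in 6 of the 7 genes that passed the filter in every group, Ocln being the other. Over all genes tested this was 60.5%. Cldn6 and Cldn7 did not overlap either, but on 3 and 1 against 0 and 0 counts, and 4 and 2 against 2 and 0. In FH YAP-/- against FH edgeR called 0 of the 10, beside 0.943% of all genes, 0.489% higher and 0.454% lower. At an unadjusted p under 0.05 0 of the 7 genes passed, beside 8.83% of all genes. DESeq2 called 0 of the 10. The fit to all 14 libraries uses 1 estimate of the spread per gene for fresh and cultured cells, and cultured libraries differed from each other more than fresh ones. The chi-square per degree of freedom between the libraries of a group was 4.04 in FH YAP-/- and 5.49 in FH, against 68 to 235 in the cultured groups. With the compared groups alone, edgeR called 3 of the 7 genes it tested, with Cldn2, Cldn3 and Cgn higher in FH YAP-/-, beside 4251 calls over all genes in place of 133. The share of all genes called in that fit was not computed, so the 3 calls are not read as a result about these genes. In BM 3W YAP-/- against FH YAP-/- 1 of the 7, Cgn, rose and Cldn12 fell, beside 36.3% called, 19.8% higher and 16.5% lower. The interaction of the YAP-/- label with 3 weeks of BM culture called 0 of the 7 genes, beside 16.9% of all genes, 8.04% higher and 8.84% lower. At an unadjusted p under 0.05 Cldn1 and Cldn2 passed, beside 32.4% of all genes. DESeq2 called 1 there, Cldn2, as did total count scaling.

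Around these genes, 46 of 59 other tight junction genes could be tested. In BM 1D against FH 16 rose and 3 fell, beside 23.6% and 20.2% of all genes. In BM 3D against FH 18 rose and 3 fell, beside 22.5% and 17.9%. For BM 3W against FH the pair was 18 and 6, beside 33.0% and 26.1%. For LBDXL 3W against FH it was 12 and 3, beside 11.7% and 9.60%. By total counts the same 4 pairs were 29 and 2, 35 and 0, 33 and 1, and 18 and 2. Mpdz, a scaffold with many PDZ domains, fell by 2.40 ± 0.24 in BM 1D against FH (adjusted p = 4.18e-05). Prkci, the atypical protein kinase C of the Par polarity complex, rose there by 2.87 ± 0.29 (adjusted p = 4.16e-05). Cxadr, an adhesion receptor of the junction, was higher than in FH at every time of BM culture and in LBDXL 3W, by 0.65 ± 0.23 to 1.69 ± 0.23.

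At 3 weeks 6 of these 46 genes were higher and 10 lower in LBDXL 3W than in BM 3W. Over all genes the shares were 21.1% and 23.7%. In BM 3W YAP-/- against BM 3W 5 were higher and 10 lower, beside 15.0% and 16.6% of all genes. By total counts the pairs were 2 and 24, and 2 and 20. Lsr, a protein of tricellular junctions, averaged 375 CPM in LBDXL 3W and 463 CPM in BM 3W YAP-/- against 107 CPM in BM 3W, higher by 1.80 ± 0.28 (adjusted p = 6.08e-04) and 2.11 ± 0.28 (adjusted p = 6.73e-04). Cldn14, another claudin, averaged 7.81 and 20.7 CPM in these groups against 0.783 CPM in BM 3W, and was higher by 3.31 ± 0.72 (adjusted p = 0.00419) and 4.71 ± 0.76 (adjusted p = 0.00158). Amotl1, an angiomotin-like protein of the junction, was lower in both, at 5.23 and 6.78 CPM against 57.3 CPM in BM 3W (-3.45 ± 0.40, adjusted p = 1.30e-04, and -3.08 ± 0.39, adjusted p = 5.36e-04). The interaction of the YAP-/- label with culture was called for Lsr (1.73 ± 0.39, adjusted p = 0.0141), Cldn14 (4.37 ± 0.97, adjusted p = 0.0138) and Amotl1 (-4.09 ± 0.57, adjusted p = 0.00201). Over the 46 genes it was called as higher for 3 and lower for 6, beside 8.04% and 8.84% of all genes. By total counts, and in FPKM + 0.1, this was 1 higher and 14 lower, so Lsr and Cldn14 did not both keep their call there.

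The genes whose log2 levels followed a gene most closely over the 14 libraries were found by Pearson's r. It is a description, since the 14 points fall into 7 groups and share their scaling. For Cldn4 they were Actb (r = 0.988), Pfn1 (0.986) and Wdr1 (0.984), which encode actin and 2 actin-binding proteins. For Cldn2 they were Wdpcp (0.923), Pkhd1 (0.916) and Gatm (0.879), and for Cldn6 Drd3 (0.971), Casp12 (0.961) and Ccnd2 (0.959). For Cgn they were Dstn (0.922), which encodes an actin-severing protein, Eps8l2 (0.918) and Hprt (0.914). The closest gene was Anapc7 for Cldn3 (0.936), Spint1 for Cldn7 (0.918), Pigr for Cldn12 (0.944), Atp5s for Ocln (0.919) and Tpr for Tjp1 (0.941).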

How the data were processed

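Raw counts per gene and FPKM, both deposited by the authors as tables of 21878 genes, were used for 14 libraries in 7 groups of 2. The submitters' processing notes name the GRCm38.p6 assembly and the tools HISAT2, HTSeq, Trimmomatic, Cufflinks and DESeq, with no versions. The labels name a stranded kit, but strandedness of counting was not given in the sources used here. The symbols of 27 genes altered by a spreadsheet were restored from NCBI gene IDs.

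From these, 1 edgeR 4.0.16 model (R 4.3.3) was fitted to all 14 libraries after TMM scaling, over the 14100 genes that passed filterByExpr by group. Contrasts were called at a Benjamini-Hochberg adjusted p under 0.05 in the quasi-likelihood F-test. FPKM served for comparisons per length. The test was checked on simulated counts for LBDXL 3W against BM 3W over 13977 genes, where it called 62 of 100 genes changed by 2 log2 units, 6 of 100 changed by 1, and 4 unchanged genes. Only these changed genes differed, and they were drawn above a minimum level. In the real comparison 44.8% of genes were called, which makes the adjusted threshold less strict. The simulated rates therefore do not give the power of the real test.

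Floors of 3 counts and exact counting intervals at 95% cover counting error only. The members, gene lists, motifs and comparisons were chosen with earlier results of these data known. All members were named. Other tight junction genes could be named where they had the smallest p past the threshold, up to 4 per subgroup and comparison, and those printed were picked among them after their values were seen. Some genes that these rules name are not reported here. Promoters came from RefSeq on GRCm38.p6, where all 10 genes matched.

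Alternatives were DESeq2 size factors, total counts, the DESeq2 1.42.0 Wald test, no filter, the compared groups alone, a replicate block, limma 3.58.1 on log2(FPKM + 1) with and without a minimum mean FPKM of 0.5 and on log2(FPKM + 0.1) with it, and each library left out in turn.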

Additional observations from a re-analysis of the deposited data

How the results depend on the processing

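Of 120 pairs of gene and comparison, 40 were called, and 0 of these reversed under any alternative. 18 kept their call under every alternative and 31 when no library was left out, and 32 further pairs were called under some alternative only. The counts here are over all 10 genes, with Cldn4, Cldn6 and Cldn7 in comparisons where they passed the filter in 1 group only. Most of the calls kept under every alternative were of Cldn4 and Cldn6. Cldn4 was known to be absent from FH when chosen, and Cldn6 had to be high at 3 weeks in BM to be tested. The number kept is therefore no measure of how stable the results are. In the main fit, against FH, calls numbered 4 in BM 1D, 5 in BM 3D, 6 in BM 3W and 2 in LBDXL 3W. The shares of all genes called were 43.8%, 40.5%, 59.1% and 21.3%. Against BM 3W there were 7 in LBDXL 3W and 2 in BM 3W YAP-/-, beside 44.8% and 31.6%. BM 3D against BM 1D gave 1 and LBDXL 3W against BM 3W YAP-/- 4, beside 5.26% and 6.94%. FH YAP-/- against FH and the interaction gave 0, beside 0.943% and 16.9%. The number called changed as follows, and calls over all genes moved too, as given below. In FPKM + 0.1 it was 8 in BM 3D against FH and 4 in LBDXL 3W against FH, and by the DESeq2 Wald test 4 in LBDXL 3W against FH. In BM 3D against BM 1D it was 2 by Wald test and under the 3 FPKM settings, and 0 with the compared groups alone. In BM 3W YAP-/- against BM 3W it was 4 in FPKM + 1, filtered or not. With the compared groups alone it was 3 in FH YAP-/- against FH and 2 in LBDXL 3W against BM 3W YAP-/-. In the interaction it was 1 by total counts, by Wald test, without the filter and with the replicate block, 2 with the compared groups alone, 3 in FPKM + 1 and 2 in the other FPKM settings. With 1 library left out, where a lone library is assumed to vary like the others, counts ran from 2 to 4 in BM 1D against FH, 2 to 5 in BM 3D against FH, 4 to 7 in BM 3W against FH, 0 to 3 in LBDXL 3W against FH, 0 to 2 in BM 3D against BM 1D, 6 to 7 in LBDXL 3W against BM 3W, 0 to 2 in BM 3W YAP-/- against BM 3W, 1 to 4 in LBDXL 3W against BM 3W YAP-/- and 0 to 2 in the interaction.

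A further 48 pairs were called under no setting, and 32 of these changed direction under at least 1. The pairs called under some alternative that changed sign were these, and none of them was called above. Ocln gave 0.73, 0.48, 0.64 and 0.48 in BM 1D against FH and 1.15, 0.89, 1.13 and 0.89 in BM 3W against FH by total counts and the 3 FPKM settings, and -0.12, -0.13, -0.15 and -0.13 in BM 3W YAP-/- against BM 3W. In BM 3D against FH it gave -0.019 with DESeq2 size factors and -0.018 by Wald test. With 1 library left out, Ocln ran from -0.11 to 0.16 in BM 3D against FH and from -0.29 to 0.045 in BM 3W against FH. Tjp1 ran from -0.0011 to 0.41 in BM 3W against FH, from -0.94 to 0.13 in BM 3W YAP-/- against BM 3W and from -0.79 to 0.27 in the interaction. Cldn3 ran from -0.35 to 0.97 in BM 3W against FH and from -1.03 to 0.29 in LBDXL 3W against BM 3W, and Cldn6 from -0.76 to 0.18 in BM 3W YAP-/- against BM 3W. The cause was not tested.

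Libraries share only a number between groups, with correlations of same-numbered libraries from -0.0231 to 0.461. The replicate block added 3 calls, Cldn2 in the interaction (log2 -3.23, adjusted p = 0.0478), Ocln in BM 3W YAP-/- against BM 3W (adjusted p = 0.0488) and Tjp1 in BM 3W against BM 3D (adjusted p = 0.0246), and changed no other call. Calls over all genes moved by over 1.5 times from 6170 in BM 1D against FH (3842 to 8415), 5705 in BM 3D against FH (3435 to 8613), 3009 in LBDXL 3W against FH (1178 to 4415), 742 in BM 3D against BM 1D (0 to 1734), 3447 in BM 3W against BM 3D (1664 to 4810), 6323 in LBDXL 3W against BM 3W (3993 to 8664), 4459 in BM 3W YAP-/- against BM 3W (1938 to 7098), 133 in FH YAP-/- against FH (13 to 4251), 5120 in BM 3W YAP-/- against FH YAP-/- (2857 to 6471), 978 in LBDXL 3W against BM 3W YAP-/- (169 to 1888) and 2380 in the interaction (800 to 5532). With 2 libraries per group, an effect that did not pass is not shown to be absent.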
